A study of Mus musculus with 4 samples.

Results

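Apolipoproteins are the proteins that build lipoprotein particles, steer them to receptors and set how fast their triglyceride is broken down. Apob is the structural protein of the triglyceride-rich particles and of low-density lipoprotein, Apoa1 and Apoa2 are the main proteins of high-density lipoprotein, and Apoe is the ligand by which particles are taken up through receptors of the low-density lipoprotein receptor family. Apoc2 activates lipoprotein lipase, Apoc3 holds lipolysis back, Apoa5 promotes it, Apoa4 travels on chylomicrons and high-density lipoprotein, and Apoc1 hinders the uptake of remnant particles. The liver is a main source of most of these proteins in the fetus and in the adult.

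The 9 genes Apoa1, Apoc3, Apoa4, Apoa5, Apoe, Apoc1, Apoc2, Apob and Apoa2 lie at 4 places in the mouse genome, and DNA methylation there was read from every array probe whose position starts inside a fixed window. On build mm9 the windows were chr9:46010000-46080000 for Apoa1, Apoc3, Apoa4 and Apoa5, chr7:20250000-20310000 for Apoe, Apoc1 and Apoc2, chr12:7970000-8030000 for Apob, and chr1:173140000-173170000 for Apoa2. They held 281 of the 415749 probes used, 88 at the Apoa1 cluster, 113 at the Apoe cluster, 24 at Apob and 56 at Apoa2, so no window was empty. The files name a probe by its position alone, so a probe belongs to a window and is not tied to 1 gene of it. In the gene order of the later build GRCm38, Pafah1b2, Sik3 and Zpr1 flank the Apoa1 cluster, Clptm1, Gm44805 and Tomm40 flank the Apoe cluster, which also holds Apoc4, Klhl29 and Ldah flank Apob, and Nr1i3, Tomm40l and Fcer1g flank Apoa2. Parts of these neighbours may lie inside the windows.

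The study asked how food restriction of the mother acts on the fetal liver. Dams were C57BL/6J mice. The control pool came from fetuses of dams fed freely, and the food restricted pool from fetuses of dams given 50% of the chow that controls ate, from gestation day 10 to 17. Fetal livers of both groups were collected on gestation day 18. Each group is 1 DNA pool described as N = 6, and the labels do not say whether this counts fetuses or litters. Methylated DNA was immunoprecipitated (IP) and hybridised with the total DNA of the same pool, the reference, to a 2-colour tiling array.

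There were 2 arrays for each pool, and the IP DNA was in Cy5 on slide 1 and in Cy3 on slide 2. The 2 arrays of a pool repeat the assay on the same DNA, so they show technical spread and not the spread between litters, and no test between the groups is possible. The enrichment M is the log2 ratio of IP to reference signal, set to a median of 0 over the probes of each array. It rises with the methylation of a fragment and with its density of CG dinucleotides, and it gives no percentage of methylated cytosines. D is the value of the food restricted pool after that of the control pool is taken off, slide by slide. Neighbouring probes were joined into regions of at most 2000 bp with at least 3 probes, and the value of a region is the median over its probes. A region was called where D was at least 0.5 in size, a 1.41-fold difference in ratio, with the same sign on both slides. The 4 windows held 42 of the 56653 regions, 13 at the Apoa1 cluster, 16 at the Apoe cluster, 3 at Apob and 10 at Apoa2, and 11 member probes lay in no region. The arrays hold DNA, so the labelled tissue could not be checked by marker genes, and in a whole liver a change in the mix of cell types and a change of methylation within cells cannot be told apart.

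The arrays carry a doubt about their labels. In the deposited value table, the column of the food restricted pool in the first dye orientation and that of the control pool in the second hold each other's scanner values, equal within 0.001 at 100% of probes. Each runs against its own scanner file at r = -0.91. The scanner files were used because their dye orientation is that of the titles. On both slides a pool kept its array position, so position and pool cannot be told apart. The IP signal was well above background at 72.2% and 72.0% of all probes on the control arrays and at 79.9% and 80.6% on the food restricted arrays. Among member probes the shares were 90.7% and 90.4% against 95.0% and 94.3%, so the loci were measured more fully than the array at large, and 0 member spots were saturated. To take the value table as headed, each column was turned to IP over reference by the dyes of the scanner file it holds. Only its pool label was taken from the heading. Taken so, the value table sets arrays against each other that the scanner files give to 1 pool. Its first D is then the change between the control repeats and its second that between the food restricted repeats. By the scanner files it therefore shows technical spread and not a difference between the pools. On this reading 0 member regions were called higher, 0 lower and 1 opposite in sign. Over all 56653 regions 1433 were called higher and 584 lower. The median D of the member regions was -0.081, against -0.0265 over all regions.

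Because the CG content of a fragment bears on M, the start of a gene at each of the 4 places is shown here, as the 250 bases before the start site in RefSeq on GRCm38.p6. Of the 9 genes, 7 matched an entry of the RefSeq promoter table, and Apoc3 and Apoc1 are named only. Each sequence runs 5′ to 3′ along the strand of the gene, and the capitals mark every CG dinucleotide, which reads the same on both strands. Apoa1 lies at chr9:46228380-46228629 on the plus strand, Apoe, the first of its 3 entries, at chr7:19699189-19699438 on the minus strand, Apob at chr12:7977427-7977676 on the plus strand, and Apoa2, the first of its 2 entries, at chr1:171224804-171225053 on the plus strand.
Apoa1: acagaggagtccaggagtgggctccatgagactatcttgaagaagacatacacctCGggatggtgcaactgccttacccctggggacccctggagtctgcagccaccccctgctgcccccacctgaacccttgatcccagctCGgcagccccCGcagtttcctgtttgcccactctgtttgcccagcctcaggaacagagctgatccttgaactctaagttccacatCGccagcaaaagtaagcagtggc
Apoe: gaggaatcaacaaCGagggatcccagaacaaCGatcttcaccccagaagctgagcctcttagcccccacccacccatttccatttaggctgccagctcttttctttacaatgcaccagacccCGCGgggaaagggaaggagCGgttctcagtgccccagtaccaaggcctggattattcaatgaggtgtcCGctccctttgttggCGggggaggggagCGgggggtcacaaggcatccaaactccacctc
Apob: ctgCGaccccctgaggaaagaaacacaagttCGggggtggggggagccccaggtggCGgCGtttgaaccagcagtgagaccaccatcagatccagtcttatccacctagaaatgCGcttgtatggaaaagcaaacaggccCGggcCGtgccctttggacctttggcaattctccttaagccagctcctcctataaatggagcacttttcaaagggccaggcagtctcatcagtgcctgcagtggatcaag
Apoa2: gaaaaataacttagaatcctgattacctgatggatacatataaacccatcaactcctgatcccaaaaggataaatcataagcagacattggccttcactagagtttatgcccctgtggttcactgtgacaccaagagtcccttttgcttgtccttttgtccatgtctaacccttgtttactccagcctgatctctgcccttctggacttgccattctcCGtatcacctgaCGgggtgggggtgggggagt

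The motif searched was CG. The Apoe sequence held 8 of them, and 43.4% of 27025 promoters of the same length held at least as many. The Apob sequence held 7, a number that 46.5% of promoters reached. Those of the high-density lipoprotein genes were poorer, with 4 in Apoa1, reached by 61.9%, and 2 in Apoa2, reached by 80.6%. Of the entries not printed, Apoc2 held 6, Apoa5 held 3 and Apoa4 held 1, against a median of 6 over all promoters. The probes are placed on mm9 and these sequences on GRCm38, so no probe was set on a printed sequence.

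Methylated DNA was more enriched at the member probes than over the whole array, at 3 of the 4 loci but not at the Apoe cluster. The median M of the 281 member probes was 0.87 and 0.90 on the control arrays and 0.76 and 0.69 on the food restricted arrays, against 0 over all probes by construction. Averaged over the arrays the difference was 0.81. It had the same sign under every processing tried, but its size changed with the processing. It was 0.16 with a normexp background correction, 0.15 with a loess within arrays and 0.27 without probes of dim IP signal. What sets its size was not tested. Of the member regions, 38.1% had a mean M above 1, against 28.6% of all regions, and 9.52% had a mean M below -1, against 24.9%.

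**Figure D1:**
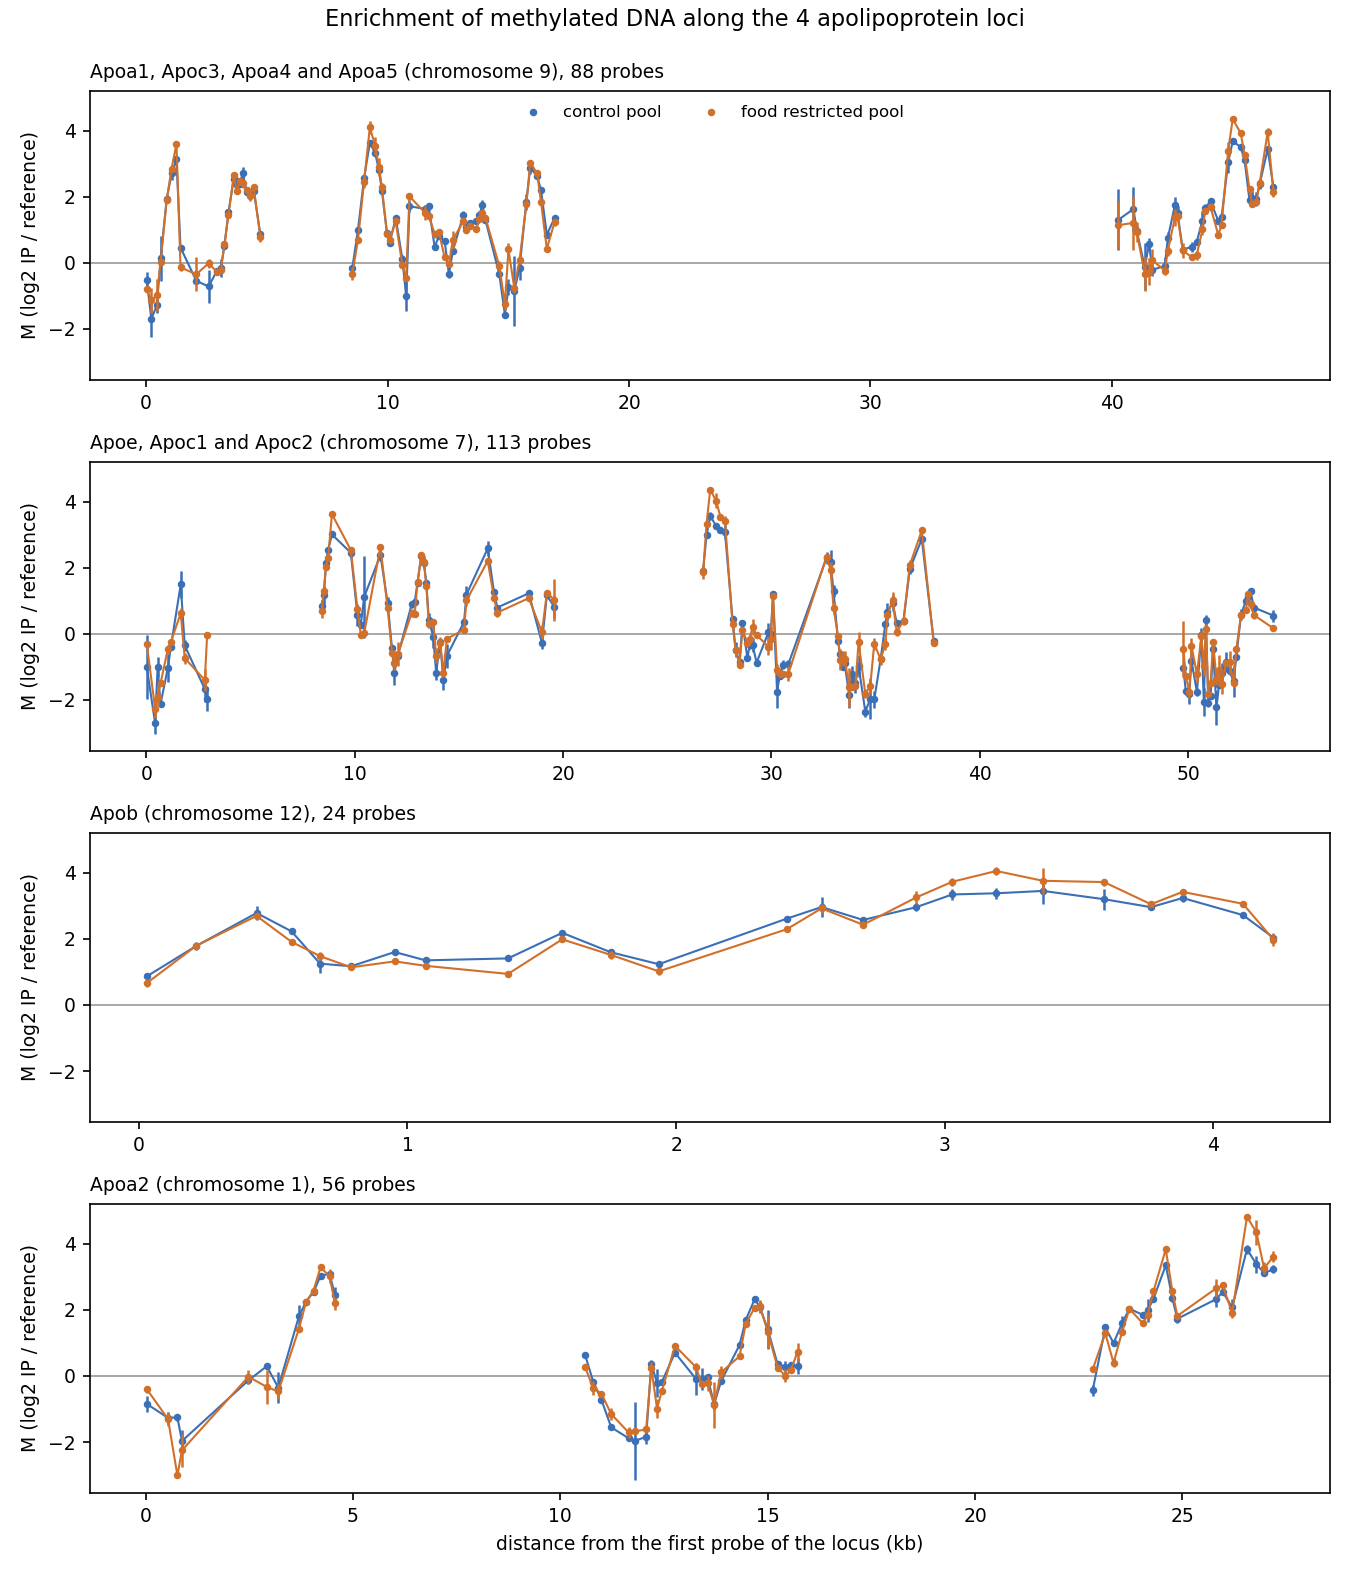
M (log2 of IP over reference) of each of the 281 member probes against its distance in kb from the first probe of its locus, for the control pool (blue) and the food restricted pool (orange). Points are the mean of the 2 arrays of a pool, vertical bars run from slide 1 to slide 2, and lines join probes of 1 block; peaks and troughs recur in both pools, Apob has no value below 0, and the blocks are split by stretches with no probe.

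Apob stood highest. Its 24 probes span only 4254 bp, chr12:7981148-7985401, of the 60 kb window, and the next probe along the chromosome starts at chr12:8213425. The median M was 2.41 and 2.36 in the control pool and 2.19 and 2.20 in the food restricted pool. The 262 probes within 1 Mb of the window had medians between 0.38 and 0.47, and all of them lay past its far end, from chr12:8213425 on. All 24 probes had an IP signal above background on the 4 arrays, and the lowest single value was 0.53. Probe by probe, the pools were level, at a median D of -0.0058 and -0.021 on the slides.

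Along the Apob tile, the level climbed from the first region to the last. The first region, chr12:7981148-7982550 with 9 probes, had M of 1.42 and 1.50 in the control pool and 1.34 and 1.29 in the food restricted pool. The middle region, chr12:7982695-7983866 with 6 probes, had 2.41 and 2.30 against 2.05 and 2.20. The last, chr12:7984012-7985401 with 9 probes, had 3.34 and 3.06 against 3.50 and 3.36. Steps between these regions were larger than any gap between the pools. In the first and middle regions both food restricted values lay below both control values, with D of -0.078 and -0.22 and of -0.35 and -0.10, while in the last both lay above, with D of 0.16 and 0.30. The middle region had the largest mean D in size at Apob, -0.23, and the last had a mean D of 0.23. The D of the middle region turned to 0.077 and 0.13 with normexp and to 0.088 and 0.13 with loess, and was called lower in the IP channel alone. In none of the 3 regions was D on both slides larger than the changes between repeats.

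The Apoa1 cluster, with Apoa1, Apoc3, Apoa4 and Apoa5, was enriched over most of its probes. The median M of its 88 probes was 1.32 and 1.31 in the control pool and 1.14 and 1.23 in the food restricted pool, and that of the 347 probes within 1 Mb lay between 0.34 and 0.47. The probes fell into 3 blocks more than 3000 bp apart, chr9:46033272-46038026 with 22 probes, chr9:46041786-46050218 with 38 and chr9:46073510-46079991 with 28. Their median mean M was 1.15, 1.15 and 1.44, so the blocks were alike in level. The median D of the locus was -0.062 on slide 1 and 0.0026 on slide 2.

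Within the cluster the highest region was chr9:46077338-46078796, at 3.28 and 2.72 in the control pool and 3.31 and 3.14 in the food restricted pool. It lay in the last block, near the end of the window, and its pools overlapped. The lowest was chr9:46047868-46049041, at -0.080 and -0.75 against 0.13 and -0.15. There the repeats of the control pool differed by 0.67 in size, more than the pools did on either slide. The largest mean D in size, -0.59, was at chr9:46074139-46074978, with 0.74 and 0.59 in the control pool and -0.27 and 0.43 in the food restricted pool. Its D was -1.02 on slide 1 and -0.16 on slide 2, and only 1 of its 5 probes had an IP signal above background on all arrays. D was -0.082 and -0.028 with normexp and 0.12 and -0.082 with loess. The value table as headed gave -0.15 and 0.70, which are the changes between the repeats.

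The largest step between neighbouring member probes lay at the Apoa1 cluster, and steps above 2 in size also lay at the Apoe cluster and Apoa2. Between probes starting at chr9:46034505 and chr9:46034668, 163 bp apart, M dropped from 3.21 to 0.42 and from 3.03 to 0.50 on the control arrays, and from 3.69 to -0.25 and from 3.51 to -0.025 on the food restricted arrays. The mean step of -3.20 was larger in size than 99.6% of steps between probes at most 500 bp apart. A further border rose from a mean M of -0.73 at chr9:46044017 to 1.86 at chr9:46044153. Such borders were no more common at the 4 loci together than over the whole array, with 8 of 247 member steps, 3.24%, above 2 in size against 5.16% of all steps.

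The Apoe cluster, with Apoe, Apoc1 and Apoc2, was the least enriched. The median M of its 113 probes was -0.12 and -0.13 in the control pool and -0.057 and -0.019 in the food restricted pool, below the medians of 0.093 to 0.21 for the 979 probes within 1 Mb. Its 4 blocks differed from each other. The median mean M was -0.88 over the 10 probes of chr7:20250187-20253135, 0.78 over the 35 of chr7:20258579-20269802, -0.16 over the 44 of chr7:20276884-20287998 and -0.80 over the 24 of chr7:20299924-20304308. Only the block of 35 probes thus had a median above 0, and the outer blocks were the lowest of all 11 blocks of the 4 loci. The median D of the locus was 0.011 on slide 1 and 0.056 on slide 2.

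The highest region of the Apoe cluster was chr7:20276884-20277981, with 6 probes, at 3.21 and 3.03 in the control pool and 3.59 and 3.44 in the food restricted pool. Both food restricted values lay above both control values, with D of 0.39 and 0.40, and the repeats differed by 0.17 and 0.16 in size. At a mean M of 3.32 this was the most enriched of the 42 member regions, just above the last Apob region at 3.31. The pools differed more in the reference channel, by -0.58 and -0.51, than in the IP channel, by -0.20 and -0.21, each centred on its array median. D passed 0.5 on both slides with the normexp correction, at 0.53 and 0.61, and with the loess, at 1.04 and 0.84. It shrank to 0.11 and 0.051 with quantile normalization and to 0.13 and -0.018 with the running median of D taken off. The value table as headed gave -0.17 and -0.15, which are the changes between the repeats. At its far edge M fell from a mean of 3.25 at chr7:20277935 to 0.37 at chr7:20278298.

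The region with the largest mean D at the Apoe cluster, 0.57, was chr7:20299924-20301694, with 13 probes. M was -1.63 and -1.69 in the control pool and -0.96 and -1.23 in the food restricted pool, so the pools did not overlap. D was 0.67 on slide 1 and 0.46 on slide 2, against changes of 0.058 and 0.27 in size between repeats, and 12 of the 13 probes had an IP signal above background on all arrays. It missed the call on slide 2 and was called higher without centring, at 0.78 and 0.53, without probes of dim IP signal, at 0.50 and 0.57, and at a size of 0.4. Other settings shrank D, to 0.40 and 0.19 with the running median of D taken off, to 0.15 and 0.16 with normexp and to -0.11 and 0.21 with loess. At the level of this region the running median of D over all regions was 0.28 on slide 1 and 0.28 on slide 2. The value table as headed gave -0.058 and -0.27, which are the changes between the repeats.

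The lowest region of the Apoe cluster was chr7:20249654-20250900, at -1.97 and -1.70 against -1.50 and -1.61, with 4 of its 6 probes inside the window and D of 0.47 and 0.089. A further low region, chr7:20284195-20285453, had -1.29 and -1.76 against -1.14 and -1.10. The region chr7:20269149-20269802, with 3 probes, went opposite ways on the slides, with M of 0.49 and 1.14 in the control pool and 1.25 and 0.40 in the food restricted pool. Its D of 0.77 and -0.74 was the only opposite pair past the size among the members, 2.38% of 42, where 0.717% of all regions had such a pair. With normexp D was 0.33 and 0.19 there, and with loess 0.20 and 0.15, both of 1 sign.

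The Apoa2 window joined low stretches with high ones. The median M of its 56 probes was 0.77 and 0.87 in the control pool and 0.69 and 0.58 in the food restricted pool, near the medians of 0.37 to 0.51 for the 930 probes within 1 Mb. The 3 blocks were unlike, with a median mean M of -0.020 over the 13 probes of chr1:173140630-173145221, 0.082 over the 25 of chr1:173151201-173156376 and 2.24 over the 18 of chr1:173163441-173167852. In the last block all 18 probes had an IP signal above background on the 4 arrays and 16 had M above 1 on each of them. The median D of the locus was -0.057 on slide 1 and 0.047 on slide 2.

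The highest Apoa2 region was chr1:173166415-173167852, with 7 probes, at 3.01 and 3.10 in the control pool and 3.07 and 3.44 in the food restricted pool. The pools overlapped, with D of 0.056 and 0.33. Its probe starting at chr1:173167160 had the highest mean of all member probes, with 3.97 and 3.70 against 4.81 and 4.81, and lay above 99.3% of all probes. When probes were joined only over gaps of at most 300 bp, the 4 probes from that position to chr1:173167852 formed a region of their own at 3.23 and 3.42 against 3.87 and 4.08. Its D of 0.64 and 0.65 passed the size on both slides.

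The lowest Apoa2 region, chr1:173141149-173141538, was also the member region with the largest mean D in size, -0.96. M was -1.45 and -1.14 in the control pool and -1.76 and -2.74 in the food restricted pool, so the control values were the higher pair on both slides. D was -0.31 and -1.60, and the repeats of the food restricted pool differed by 0.98. The region has 3 probes, of which 1 had an IP signal above background on any array, so most of its values lie near the background. It was called lower with quantile normalization, with centring on the densest value, with the running median of D taken off and in the IP channel alone. With normexp D was -0.30 and -0.058, and without probes of dim IP signal too few probes were left for a value. The value table as headed gave 0.31 and -0.98, which are the changes between the repeats.

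**Figure D2:**
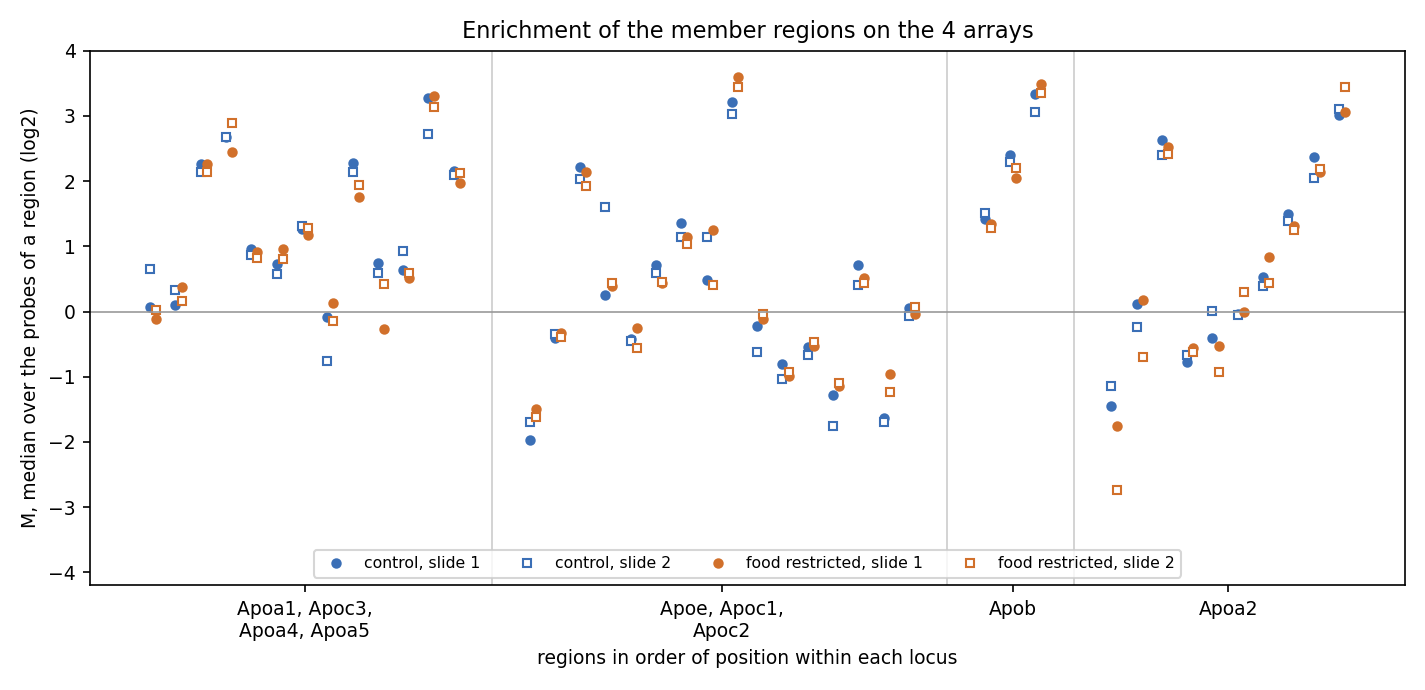
M of the 42 member regions on the 4 arrays, in order of position within each locus, as the median log2 ratio over the probes of a region. Filled circles are slide 1 and open squares slide 2, blue the control pool and orange the food restricted pool; the differences between regions, from about -2 to above 3, are far wider than those between the 4 values of a region, except in a few regions.

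Across the 4 loci the pools were close. Of 42 member regions, 0 were called higher and 0 lower in the food restricted pool, where 4.55% of all regions were called higher and 0.643% lower. A single call among 42 regions would be 2.38%, so a set of this size cannot resolve small departures from 4.55%. Their median D came to -0.020 and 0.0076 on slides 1 and 2, against 0.036 and 0.089 over all regions. The median size of D was 0.19 and 0.18, and the control repeats differed by a median of 0.16 and the food restricted repeats by 0.14. Over all regions the sizes were 0.22 and 0.22 for D and 0.23 and 0.20 for the repeats. D had the same sign on both slides in 28 of 42 regions, 14 positive and 14 negative, which is 66.7% against 62.8% of all regions.

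On 1 slide only, 10 member regions passed 0.5, which is 23.8% where 22.5% of all regions did so. In 6 regions, 14.3% of the 42 and 19.2% of all, D on both slides was larger than the change between the repeats of either pool. They were named after their values were seen. The regions chr7:20276884-20277981 and chr7:20299924-20301694, described above, had D above 0, and so did chr9:46044811-46045993, with 0.24 and 0.22. Below 0 were chr9:46049159-46050218, with D of -0.52 and -0.21, chr7:20262898-20264638, with -0.27 and -0.14, and chr1:173163441-173164376, with -0.19 and -0.13.

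**Figure D3:**
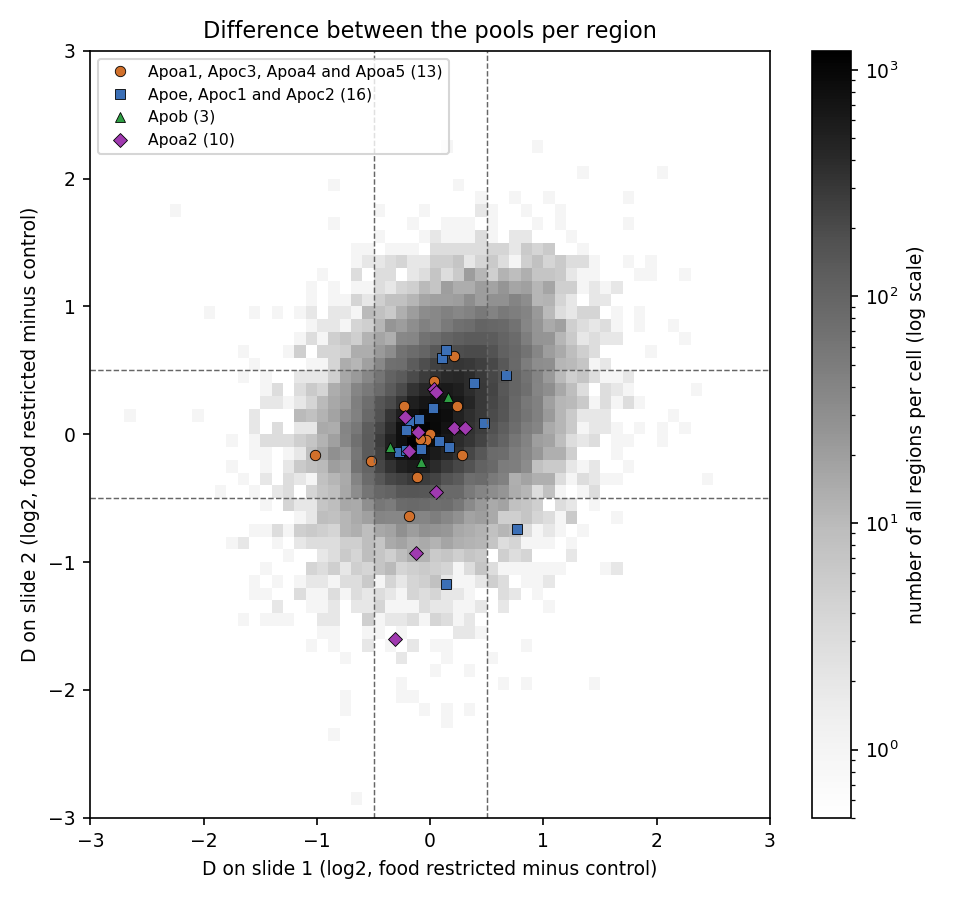
D (log2, food restricted minus control) on slide 1 against slide 2 for the member regions of each locus over all 56653 regions, whose number per cell is shaded on a log scale. Dashed lines mark the size of 0.5; no member region lies in the upper right or lower left corner, and 1 of the Apoe cluster lies at 0.77 and -0.74 in the lower right.

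D moved with the level of enrichment over the whole array. The 14115 regions with a mean M below -1 had a median D of 0.25 on slide 1 and 0.27 on slide 2. All 2889 regions with a mean M above 3 had a median D of 0.33 and 0.50, and the reference channel differed there by -0.52 and -0.56. Of the member regions 4 had such a level, 1 at each locus, with D of 0.031 and 0.42 at the Apoa1 cluster, 0.39 and 0.40 at the Apoe cluster, 0.16 and 0.30 at Apob and 0.056 and 0.33 at Apoa2. All 8 values were above 0, and D was above 0 on both slides in 2658 of all 2889 regions at this level. On slide 1 the running median of D over all regions at these levels was 0.18, 0.25, 0.25 and 0.19 in the same order of loci, so D lay below it at the Apoa1 cluster, Apob and Apoa2 and above it at the Apoe cluster. On slide 2 it was 0.33, 0.42, 0.42 and 0.35, with D above it at the Apoa1 cluster only. With a loess within arrays these 4 regions were called higher, with the Apoa2 one at 1.16 and 1.51, and so was chr9:46041786-46042945. With quantile normalization the mean D of the 4 was between -0.090 and 0.082, and with the running median taken off between -0.11 and 0.058. The part of the level and of the reference channel in these differences was not tested.

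**Figure D4:**
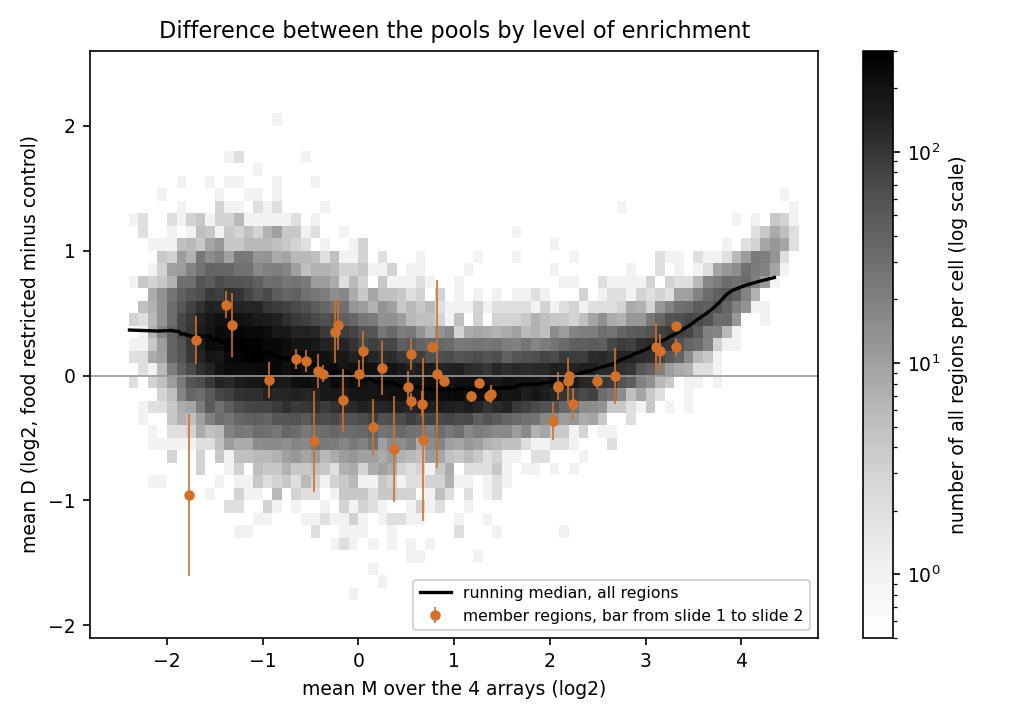
Mean D over the slides against mean M over the 4 arrays (both log2) for the 42 member regions, with bars from slide 1 to slide 2, over the number of all regions per cell on a log scale. The black line is the running median of all regions, above 0 at both ends; the 4 member regions with M above 3 lie along its rising arm, 3 of them below the line, and the Apoa2 region at -0.96 lies farthest below it.

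Single probes were counted by the same rule. Of 281 member probes 19 were higher past 0.5 on both slides, which is 6.76% where 9.85% of all probes were. Lower were 6, 2.14% against 2.48%, and 7 went opposite ways, 2.49% against 3.84%. These counts are small, so the lower shares are not read as a trait of the loci. The following probes were picked after their values were seen. The probe starting at chr7:20277222, in the highest region of the Apoe cluster, had M of 3.67 and 3.45 in the control pool and 4.45 and 4.27 in the food restricted pool. The Apob probe at chr12:7984314 had 3.53 and 3.22 against 4.16 and 3.94, and the probe at chr9:46078257 had 3.78 and 3.58 against 4.33 and 4.37. All 3 belong to the regions with M above 3.

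Some probes of low level with wide gaps, also picked after their values were seen, were dim. The probe at chr7:20253080 had -1.62 and -2.32 in the control pool and -0.032 and -0.047 in the food restricted pool, and its IP signal was above background on the food restricted arrays only. The probe at chr7:20285093 had -2.24 and -1.73 against -0.48 and -0.12 and was likewise dim on the control arrays. At chr9:46048257, where the signal was above background on all 4 arrays, M was -0.50 and -0.99 against 0.22 and 0.59. The Apoa2 probe at chr1:173141370 went the other way, with -1.37 and -1.14 against -3.06 and -2.96, and was dim on every array.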

How the data were processed

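The data are 4 deposited scanner files of a 2-colour tiling array. The submitters' processing notes name Agilent Feature Extraction 10.5.1.1. Per the file headers, the processed intensity is the spot signal less local background, scaled linearly between the dyes, and positions are on mm9. The deposited value table holds log2 of red over green, neither turned for the dyes nor centred, with column medians from -0.23 to 0.24. Of 420288 spots, 4474 controls and 65 outliers were left out.

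From these, M, D and the regions were computed with python 3.11.15, pandas 2.3.3 and numpy 2.4.6. Probes joined where starts lay at most 500 bp apart, and longer runs were split into equal pieces. The normexp (offset 50, on the median spot signal, since no mean signal was used here), loess and quantile alternatives used limma 3.58.1 in R 4.3.3. The region step was tested on simulated data. With 1 pool a group no test was run. Named in each locus were the lowest and highest region, that with the largest mean D and any called or opposite region. The members and lists were chosen with earlier results of these data known.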

Additional observations from a re-analysis of the deposited data

How the results depend on the processing

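With 18 alternatives, the 0 member regions called higher became 1 with normexp, 1 without centring and 1 at a size of 0.4. Of all 56653 regions 1552, 4071 and 4322 were called higher under these settings, in the same order. With loess 5 member regions were called higher, and 4826 of all regions. Without probes of dim IP signal 1 of 36 member regions was called higher, and 1709 of all 43856. With gaps of at most 300 bp it was 2 of 40, and 3188 of all 59287. The 2 regions at 300 bp were part of the last Apoa2 region and chr7:20284668-20285151, at D of 0.90 and 0.51. The 0 called lower became 1 with quantile normalization, 1 with centring on the densest value, 1 with the running median of D taken off and 3 in the IP channel alone. Of all 56653 regions 581, 1195, 571 and 977 were called lower, in the same order. The slide is what pairs the arrays, and the labels give no replicate numbers. Without the slide as a block, D taken across slides gave 2 lower regions, chr1:173141149-173141538 and chr1:173152399-173153425, both at Apoa2. On slide 1 alone 2 member regions were past 0.5 and 2 past -0.5, and 6998 and 2542 of all 56653 regions. On slide 2 alone it was 3 and 5 member regions, and 7799 and 2124 of all regions. The median D of the member regions was -0.021, against 0.062 over all regions. It became 0.093 against 0.058 with normexp, 0.035 against 0.059 with loess and 0.063 against 0.15 without centring. With centring on the densest value it was -0.20 against -0.11, and without dim reference or saturated probes 0.0052 against 0.081. In the IP channel alone it was -0.22 against -0.12. On a single slide it was -0.020 against 0.036 and 0.0076 against 0.089. With the value table as headed it was -0.081 against -0.0265. The sign of the member median is therefore not settled. It lay below the median of all regions under each of these settings except normexp. The member regions have another mix of levels, with 9.52% at a mean M below -1 against 24.9% of all regions. The part of this mix in the lower median was not tested. The excess of M over all probes, 0.81, became 0.16 with normexp, 0.15 with loess, 0.27 without dim IP probes and 1.25 in the IP channel alone. The median D over the probes of a locus moved by more than the spread between slides in 26 of 56 alternative values. For the Apoa1 cluster, the Apoe cluster, Apob and Apoa2 in this order, it became 0.12, 0.10, 0.21 and 0.12 with normexp, 0.055, 0.12, 0.071 and 0.080 without centring, -0.20, -0.14, -0.19 and -0.18 with centring on the densest value, and -0.35, -0.16, -0.45 and -0.28 in the IP channel alone. With loess it became 0.14 at the Apoa1 cluster and 0.38 at Apob. At the Apoe cluster it became 0.11 with means over probes, -0.0049 with the running median taken off and -0.13 with the value table as headed. At Apob it became 0.017, -0.10 and -0.086 under these same settings, -0.073 with quantile normalization and -0.069 without the slide block. No centring and centring on the densest value shift all probes of an array by 1 amount, so all loci and all regions moved alike under them. By the scanner files, the value table as headed compares repeats and not pools. What drives the other shifts was not tested.

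The main limit is 1 pool per group, since no value here carries the spread between litters. Dim IP spots limit the low regions. The assignment of the arrays rests on the scanner files. The windows cover only tiled stretches, and gene bodies and promoters could not be placed on mm9.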
